A study of Mus musculus with 30 samples.

Results

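The genes of proline and ornithine metabolism were examined in mouse liver. The members were chosen by name as the rows of the count tables for *Oat*, *Prodh*, *Prodh2*, *Aldh4a1*, *Aldh18a1*, *P4ha1* and *Hoga1*, and all 7 were present among the 14173 genes of the tables. Livers came from 30 male C57BL/6J mice, 6 on each of 5 diets, and each mouse gave 1 library. The labels give 10 mice per group and do not say how the 6 were chosen. The Cas-20% diet (labelled NP) held 20% casein with 0.57 g methionine and 0.41 g cystine per 100 g, and the Cas-5% diet (labelled LP) held 5% casein with 0.15 g and 0.1 g. The Soy-20% + SAA diet (20Soy_SAA) held 20% soy protein with sulfur amino acids added to 0.58 g methionine and 0.41 g cystine per 100 g, the Soy-20% diet (20Soy) held the same protein with 0.22 g of each, and the Soy-10% diet (10Soy) held 11.5% soy protein with 0.13 g of each. All mice, controls included, were acclimated for 2 weeks to NP or 20Soy, ate the assigned diet for 12 weeks from 12 weeks of age and were killed at 6 months of age after a 4 h fast. By the study's methods the NP and 20Soy mice stayed on the diet of their acclimation, and the mice of the other 3 groups changed diet at 12 weeks of age. The restricted diets held less of every amino acid than their controls, so that a response to sulfur amino acids and a response to total protein cannot be told apart in those pairs. Soy-20% and Soy-20% + SAA differed in the added sulfur amino acids and in that change of diet, which cannot be told apart.

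Proline, ornithine and glutamate meet at one mitochondrial intermediate, pyrroline-5-carboxylate, which is in equilibrium with glutamate semialdehyde. Liver oxidises proline to glutamate through proline dehydrogenase (*Prodh*) and the aldehyde dehydrogenase ALDH4A1, and sends surplus ornithine into the same intermediate through ornithine aminotransferase (*Oat*). The opposite direction, from glutamate towards proline and ornithine, starts with pyrroline-5-carboxylate synthase (*Aldh18a1*). Hydroxyproline, which is made inside collagen and related proteins by prolyl hydroxylases such as P4HA1, is broken down by hydroxyproline dehydrogenase (*Prodh2*), ALDH4A1 and the aldolase HOGA1 to pyruvate and glyoxylate.

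The libraries held 7694015 to 14565542 counts, with a median of 10803734.5. A set of 4 libraries stood apart. The trend of expression with GC content at transcript 3′ ends, a slope over 12014 genes, lay between 0.06 and 0.20 log2 units per 10% GC in Soy-20% + SAA livers 3 to 6, and between −0.06 and 0.03 in the other 26 livers. The members' results from the pairs with Soy-20% + SAA are therefore given also with this slope as a covariate and without those 4 livers, which leaves 2 livers in that group. The summed normalised count of 6 hepatocyte markers was 745400 to 995450 in every liver, and 11 marker lists were examined in all. Soy-10% liver 4 had a summed normalised count of 8367 for pancreatic acinar markers, where the other 29 livers had 164 to 629, and without that liver the edgeR calls of the members in each comparison with Soy-10% were as given below. In bulk RNA, fewer cells of a type and less RNA per cell cannot be told apart.

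Casein restriction lowered the genes that break proline, ornithine and hydroxyproline down. Of the 7 members, 5 were called lower in Cas-5% against Cas-20% (edgeR quasi-likelihood test, Benjamini-Hochberg adjusted p of 0.05 or less), where 24.9% of all 12076 genes tested were called, 13.3% lower and 11.6% higher. *P4ha1* was not called, and *Aldh18a1* was higher but passed the filter on low counts only through its Cas-5% livers, so that its call is not counted here. In 4 of the 5 lower members the 6 Cas-5% livers did not overlap the 6 Cas-20% livers, as in 12.9% of all genes. The median log2 difference of the 7 members was −0.70, and that of all genes tested was 0.02.

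*Oat* (ENSMUSG00000030934, GRCm38 chr7:132557478-132576398, minus strand) had the largest fall of the members. Its normalised counts in Cas-20% livers were 5982 at the lowest, 8365 at the median and 11350 at the highest, against 1334, 1543 and 1768 in Cas-5% livers. The highest Cas-5% liver lay far below the lowest Cas-20% liver. The log2 difference was −2.46 (SE 0.14, edgeR adjusted p = 7.0e-09, n = 6 livers each), which left 18.2% of the Cas-20% level. By p *Oat* ranked 7 among the 12076 genes, and by size of fall it ranked 32. Its annotated span lies inside that of *Fgfr2* on the same strand, which averaged 266 counts per liver, and whether reads were shared between them was not tested. Its RefSeq promoter is shown because the gene fell most. The 250 bases before the start (GRCm38.p6 chr7:132576399-132576648, minus strand, 5′ to 3′) hold none of the motifs searched, so no letters are in capitals:
Oat: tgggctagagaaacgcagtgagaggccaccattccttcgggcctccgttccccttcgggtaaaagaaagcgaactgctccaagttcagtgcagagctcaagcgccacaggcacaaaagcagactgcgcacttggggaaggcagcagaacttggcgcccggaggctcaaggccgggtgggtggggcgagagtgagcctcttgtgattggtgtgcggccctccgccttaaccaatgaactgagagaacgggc

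*Prodh* (ENSMUSG00000003526, GRCm38 chr16:18060357-18090203, minus strand) and *Aldh4a1* (ENSMUSG00000028737, chr4:139622866-139649690, plus strand) carry out successive steps from proline to glutamate, and both fell. *Prodh* normalised counts were 914, 1002 and 1295 in Cas-20% livers at the lowest, median and highest, against 349, 363 and 530 in Cas-5% livers. Those of *Aldh4a1* were 3000, 3415 and 3921, against 1676, 1871 and 2026. Neither gene overlapped between the groups. On the log2 scale *Prodh* differed by −1.39 (SE 0.11, edgeR adjusted p = 1.7e-07). *Aldh4a1* differed by −0.86 (SE 0.07, edgeR adjusted p = 3.0e-07). One Cas-5% liver, liver 6 with 530 for *Prodh*, stood above the other Cas-5% livers (349 to 397) but still below every Cas-20% liver. The 3′ end of *Prodh* is overlapped on the opposite strand by *Dgcr6*, which averaged 325 counts per liver. The 3′ end of *Aldh4a1* is covered on the same strand by *Gm21969*, a gene that is not among the rows of the tables, and shared reads were not tested here either.

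The genes of hydroxyproline breakdown fell too. *Prodh2* (ENSMUSG00000036892, GRCm38 chr7:30493622-30513402, plus strand), the dehydrogenase that acts on hydroxyproline, had normalised counts of 1174, 1201 and 1444 in Cas-20% livers against 728, 771 and 811 in Cas-5% livers. The groups did not overlap, and the log2 difference was −0.70 (SE 0.07, edgeR adjusted p = 1.1e-06). *Hoga1* (ENSMUSG00000025176, GRCm38 chr19:42045610-42070953, plus strand), whose enzyme splits the last intermediate to pyruvate and glyoxylate, gave 2192, 2507 and 2740 in Cas-20% livers against 1487, 1845 and 2302 in Cas-5% livers. Here 1 Cas-5% liver (2302) reached into the Cas-20% range, and the log2 difference was −0.39 (SE 0.09, adjusted p = 0.0043).

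*Aldh18a1* (ENSMUSG00000025007, GRCm38 chr19:40550257-40588463, minus strand) moved the other way, at low counts. Its normalised counts were 2.9, 3.2 and 7.0 in Cas-20% livers against 12.8, 18.8 and 25.7 in Cas-5% livers, and the groups did not overlap. The log2 difference was 2.20 (SE 0.29), or 4.58-fold. In the main fits the gene was tested only where Cas-5% livers took part, and was filtered out of the 4 other pairs of diets, so that its differences are given as descriptions. With no filter on low counts the casein difference was 2.19 (SE 0.30, edgeR adjusted p = 3.8e-05). The gene had 0 to 26 raw counts per liver and 233 over all 30 livers, so that each liver's value carries a large counting error. All 7 members had a RefSeq promoter, 250 bases before to 50 after the start. Each was searched on both strands for 5 motifs: TGATGNAA (the composite element of ATF4 and C/EBP), TGACGTCA (cyclic AMP response element), CACGTG (E-box), the glucocorticoid response element and the direct repeat 1 element. One match was found, the palindromic E-box at bases −59 to −54 of *Aldh18a1*, which is in capitals below. Of all 32851 promoters of the same length, 7.15% hold that E-box, 3.97% the composite element, 1.79% the cyclic AMP response element, 0.0396% the direct repeat and 0.00913% the glucocorticoid response element. The 250 bases before the start (GRCm38.p6 chr19:40588464-40588713, minus strand, 5′ to 3′) are shown because this member alone held a match:
Aldh18a1: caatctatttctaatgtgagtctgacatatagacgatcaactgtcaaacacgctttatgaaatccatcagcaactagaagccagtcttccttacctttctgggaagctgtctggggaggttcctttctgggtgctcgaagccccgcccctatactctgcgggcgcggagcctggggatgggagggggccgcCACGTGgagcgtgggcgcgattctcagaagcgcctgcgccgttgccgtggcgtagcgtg

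*P4ha1* (ENSMUSG00000019916, GRCm38 chr10:59323296-59373304, plus strand), a catalytic subunit of the collagen prolyl hydroxylase, was not called. Its normalised counts were 43.2, 54.0 and 63.8 in Cas-20% livers against 56.3, 65.7 and 82.6 in Cas-5% livers, with the ranges overlapping. The log2 difference was 0.33 (SE 0.12, edgeR adjusted p = 0.063). It was called with the GC slope as a covariate (0.40, adjusted p = 0.034), and also without Cas-20% liver 2 or without Cas-5% liver 6 (adjusted p = 0.044 and 0.043). The calls of the 5 lower members in casein restriction held in each of the 12 fits that left out 1 liver. The plot of normalised counts by liver and diet shows all 7 members.

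**Figure D1:**
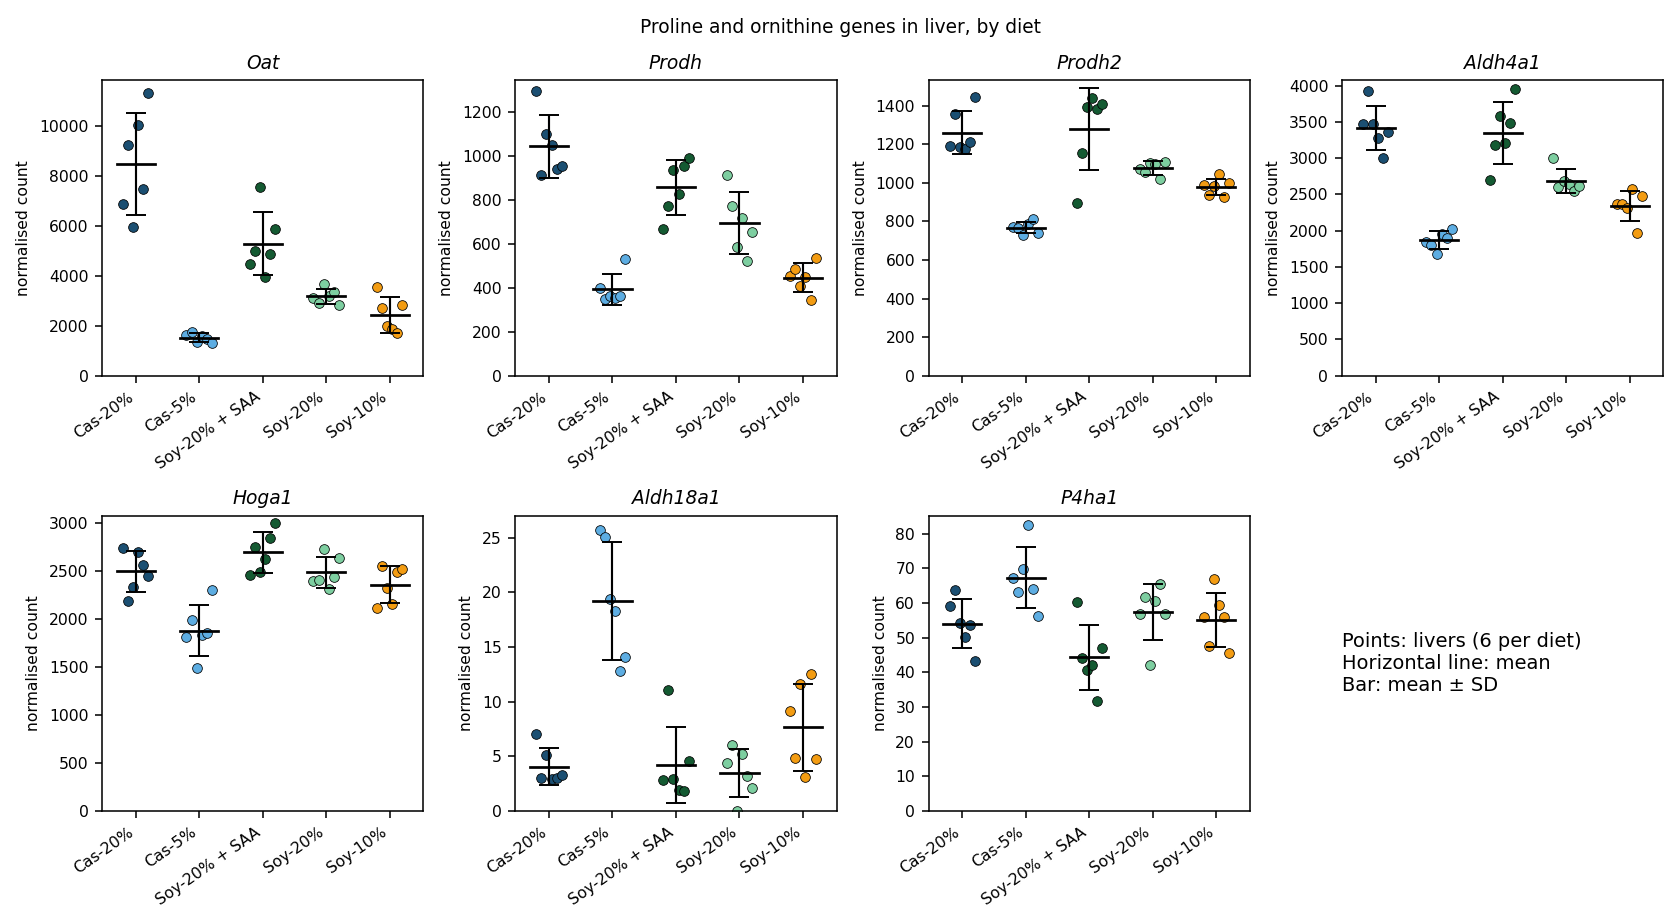
Normalised counts (deposited counts divided by size factors, vertical axes from 0) of the 7 members in each liver, by diet. Points are livers, 6 per diet, the horizontal line is the mean and the bar is the mean ± SD. *Oat*, *Prodh*, *Prodh2*, *Aldh4a1* and *Hoga1* have their lowest mean in Cas-5% livers, where *Aldh18a1* lies highest, at 12.8 to 25.7.

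Periportal and pericentral hepatocyte markers were also among the genes called lower, which were 13.3% of all genes tested. Several of the periportal markers are amino acid genes themselves. Of 10 periportal markers, 6 were called in Cas-5% livers, all lower, and their summed normalised count ranged from 27314 to 35916 in Cas-5% livers and from 39730 to 51341 in Cas-20% livers, with none of the 10 at 0 in a whole group. Of 12 pericentral markers, 1 was called higher and 5 lower, and their sum ranged from 57635 to 66476 and from 58336 to 81052. Among 8 stellate cell markers, 3 were called higher, with sums of 4888 to 6400 in Cas-5% livers and 4403 to 5257 in Cas-20% livers. Of 5 red blood cell markers, 4 were called lower, with sums of 11503 to 19812 in Cas-5% livers and 15728 to 34944 in Cas-20% livers. The part of these markers in the members' differences was not tested.

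Soy restriction also lowered genes of the breakdown arm. Of 6 members tested in Soy-10% against Soy-20% + SAA, 4 were called, all lower, where 17.0% of all 11983 genes tested were called and 8.47% were called lower. In 3 of them the groups did not overlap, as in 6.22% of all genes. With the GC slope as a covariate 2 members were called, *Oat* and *Prodh*, where 3.10% of all genes were called, and without Soy-20% + SAA livers 3 to 6 the same 2 were called, where 2.54% were. The 2 calls that were lost are those of *Aldh4a1* and *Prodh2*. The median log2 difference of the 6 members tested was −0.45, and that of all genes tested was −0.01.

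*Oat* normalised counts were 3963, 4944 and 7560 in Soy-20% + SAA livers at the lowest, median and highest, against 1711, 2358 and 3556 in Soy-10% livers, without overlap. The log2 difference was −1.12 (SE 0.19, edgeR adjusted p = 0.0019), or 46.1% of the control level. It was −1.16 with the GC slope as a covariate (adjusted p = 0.012) and −0.96 without livers 3 to 6 (adjusted p = 0.028). The fall of this ornithine-degrading gene was thus called under all 3 fits.

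*Prodh* normalised counts were 666, 880 and 988 in Soy-20% + SAA livers against 346, 453 and 536 in Soy-10% livers, again without overlap. Its log2 difference was −0.94 (SE 0.11, edgeR adjusted p = 0.00033), with −0.74 (adjusted p = 0.0030) for the covariate and −0.69 (adjusted p = 0.012) without livers 3 to 6. It was also called against unsupplemented soy, as given below.

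*Aldh4a1* normalised counts were 2703, 3342 and 3960 in Soy-20% + SAA livers against 1974, 2368 and 2580 in Soy-10% livers, also without overlap. The log2 difference was −0.52 (SE 0.09, edgeR adjusted p = 0.0025), but −0.35 with the covariate (adjusted p = 0.052) and −0.33 without livers 3 to 6 (adjusted p = 0.10). *Prodh2* ranged from 897 to 1439 in Soy-20% + SAA livers and from 927 to 1044 in Soy-10% livers, so the groups overlapped. Within Soy-20% + SAA, livers 1 and 2 had 897 and 1156 for *Prodh2*, and livers 3 to 6 had 1385 to 1439. Its log2 difference was −0.39 (SE 0.10, adjusted p = 0.020), −0.13 with the covariate (adjusted p = 0.47) and −0.07 without livers 3 to 6 (adjusted p = 0.76).

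*Hoga1* and *P4ha1* were not called after soy restriction. *Hoga1* differed by −0.20 on the log2 scale (SE 0.07, edgeR adjusted p = 0.075), and *P4ha1* by 0.31 (SE 0.15, adjusted p = 0.16). With the covariate they stood at −0.14 and 0.16, and without livers 3 to 6 at −0.15 and 0.06. Without Soy-20% + SAA liver 1 both passed the threshold, at −0.22 and 0.41 (adjusted p = 0.042 and 0.045). That fit called 25.8% of all genes, where the fit of all 12 livers called 17.0%. *Aldh18a1* had too few counts to pass the filter here. Its normalised counts were 1.9, 2.9 and 11.04 in Soy-20% + SAA livers and 3.1, 7.0 and 12.5 in Soy-10% livers, which overlapped, and with no filter on low counts the log2 difference was 0.86 (edgeR adjusted p = 0.22). Without livers 3 to 6 it was 0.15 (adjusted p = 0.93). The summed periportal markers ranged from 31488 to 37823 in Soy-10% livers and from 31045 to 40150 in Soy-20% + SAA livers, with 1 of the 10 called higher and 4 lower. Those of the pericentral markers ranged from 59028 to 67879 and from 50917 to 66950, with 3 of 12 called higher and 5 lower. With the covariate 2 periportal markers were called lower and 1 pericentral marker higher, and without livers 3 to 6 it was 2 and 0. The part of these markers in the members' differences was not tested.

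**Figure D2:**
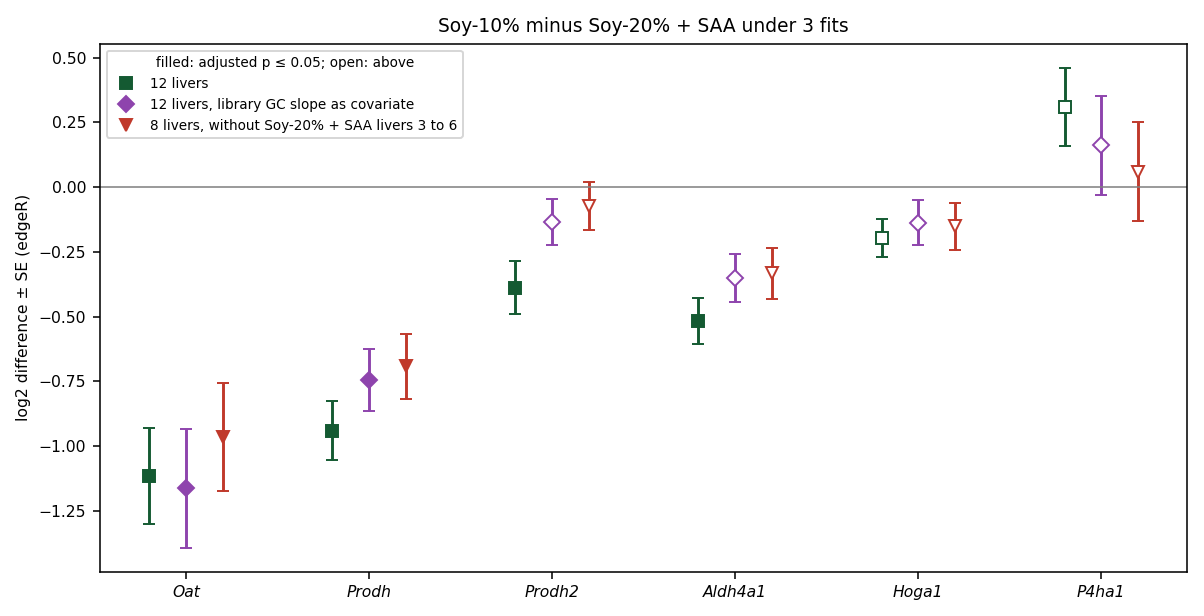
The log2 difference of Soy-10% minus Soy-20% + SAA (vertical axis, edgeR estimate with its SE as the bar) for the 6 members tested, from all 12 livers, from 12 livers with the library GC slope as a covariate, and from 8 livers without Soy-20% + SAA livers 3 to 6. Filled symbols passed an adjusted p of 0.05, which *Oat* and *Prodh* did in all 3 fits.

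Unsupplemented soy was the other control for the restricted soy diet. Between Soy-10% and Soy-20%, 1 of 6 members tested was called, *Prodh*, where 0.866% of all 11897 genes were called and 0.546% were called lower. *Prodh* normalised counts were 520, 684 and 912 in Soy-20% livers, which overlapped with the Soy-10% livers (346 to 536) through 1 liver of each diet. The log2 difference was −0.63 (SE 0.12, edgeR adjusted p = 0.020), and the call was lost in 4 of the 12 fits that left out 1 liver: without Soy-20% liver 2 or 4, or Soy-10% liver 3 or 5 (adjusted p = 0.051 to 0.058). *Oat* lay between 2838 and 3689 in Soy-20% livers, with a log2 difference of −0.38 (adjusted p = 0.27), and *Aldh4a1*, *Prodh2*, *Hoga1* and *P4ha1* differed by −0.19, −0.14, −0.08 and −0.06. None of these 5 passed the threshold. At an unadjusted p under 0.05 there were 4 of the 6 members, *Prodh* included, beside 12.3% of all genes. Of the 10 periportal markers, 3 were called lower, with sums of 31488 to 37823 in Soy-10% livers and 35781 to 41400 in Soy-20% livers, and none of the 12 pericentral markers was called. The part of the periportal markers in the difference of *Prodh* was not tested.

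The effect of the added sulfur amino acids was read between Soy-20% and Soy-20% + SAA. By edgeR 0 of 6 members tested were called, where 0.00838% of all 11932 genes, a single gene, were called. At an unadjusted p under 0.05 there were 5 members, beside 24.2% of all genes. *Oat* was nearest, with normalised counts of 2838, 3147 and 3689 in Soy-20% livers, all below the 3963 to 7560 of Soy-20% + SAA livers. Groups without overlap were found in 1 of the 6 members and in 2.04% of all genes. Its log2 difference was −0.72 (SE 0.13, unadjusted p = 6.6e-05, edgeR adjusted p = 0.055), and it was called without Soy-20% + SAA liver 1 (−0.76, adjusted p = 0.0076) or liver 2 (−0.74, adjusted p = 0.027). With the GC slope as a covariate it was −0.76 (adjusted p = 0.26), and without livers 3 to 6 it was −0.58 (adjusted p = 0.40).

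The other members had smaller differences. *Aldh4a1* differed by −0.31 on the log2 scale (SE 0.08, edgeR adjusted p = 0.070), *Prodh* by −0.29 (adjusted p = 0.18), *Prodh2* by −0.24 (adjusted p = 0.16), *Hoga1* by −0.11 (adjusted p = 0.36) and *P4ha1* by 0.38 (adjusted p = 0.16). Without Soy-20% + SAA liver 1, *Aldh4a1*, *Prodh2* and *P4ha1* passed the threshold beside *Oat* (adjusted p = 0.012, 0.013 and 0.041), in a fit that called 13.3% of all genes. Without liver 2 the fit called 9.27% of all genes. Without livers 3 to 6, *Aldh4a1* differed by −0.14, *Prodh* by −0.06, *Hoga1* by −0.07, *P4ha1* by 0.12 and *Prodh2* by 0.07, the last with its sign turned. With the covariate they stood at −0.17, −0.11, −0.04, 0.19 and −0.01. DESeq2 called *Oat* and *Aldh4a1* here (adjusted p = 0.00018 and 0.016) and 7.83% of all genes with an adjusted p.

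**Figure D3:**
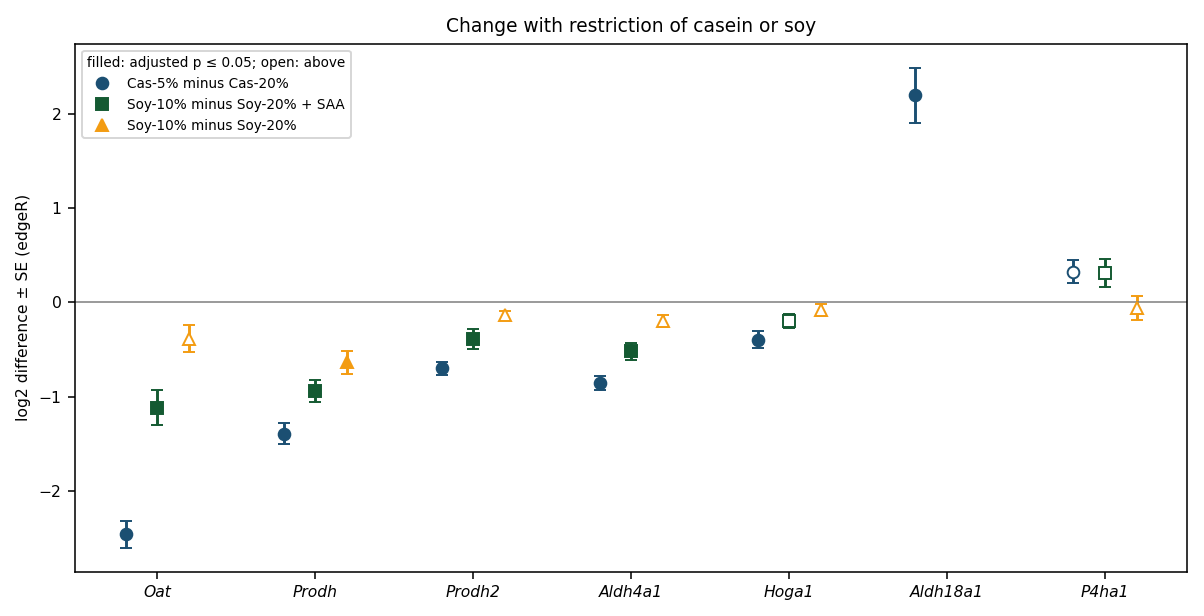
Log2 differences (vertical axis, edgeR estimate with its SE as the bar) of the members between restricted and control diets, for casein, for soy against the supplemented control and for soy against unsupplemented soy. Filled symbols passed an adjusted p of 0.05. *Oat* lies at −2.46, −1.12 and −0.38, and *Aldh18a1* was tested for casein only.

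The casein effect on *Oat* exceeded the soy effect. Casein was cut from 20% to 5% and soy from 20% to 11.5%, so that source and depth of restriction cannot be told apart. Of the controls, only the Soy-20% + SAA mice changed diet at 12 weeks of age, which cannot be told apart either. The same holds for the difference between the sources given below. The difference of the 2 effects, tested in 24 livers, was −1.35 on the log2 scale for *Oat* (SE 0.24, edgeR adjusted p = 0.0020), the 1 of 7 members called, where 8.69% of all 12532 genes were called. That call held in each of the 24 fits that left out 1 liver, with the GC slope as a covariate (−1.28, adjusted p = 0.0083) and without Soy-20% + SAA livers 3 to 6 (−1.50, adjusted p = 0.0062). *Aldh4a1* differed by −0.35 (adjusted p = 0.055), *Prodh* by −0.46 (adjusted p = 0.078), *Prodh2* by −0.32 (adjusted p = 0.093), *Hoga1* by −0.21 (adjusted p = 0.28), *Aldh18a1* by 1.33 (adjusted p = 0.14) and *P4ha1* by 0.01 (adjusted p = 0.98). With the covariate the last 3 stood at −0.23, 1.87 and 0.10 (adjusted p = 0.38, 0.069 and 0.86), and without livers 3 to 6 at −0.25, 2.04 and 0.26 (adjusted p = 0.42, 0.12 and 0.62). Of these, *Aldh18a1* was in the fit through its Cas-5% livers, so that its values are descriptions. *Aldh4a1* and *Prodh2* passed the threshold without livers 3 to 6 (−0.53 and −0.63, adjusted p = 0.025 and 0.0044), where *Prodh* stood at −0.71 (adjusted p = 0.054), and with the covariate so did *Aldh4a1*, *Prodh2* and *Prodh* (adjusted p = 0.0093, 0.0066 and 0.043). Of all genes, 4.32% were called with the covariate and 2.27% without livers 3 to 6. Taking the Soy-20% livers as controls instead, 4 members were called, *Oat* at −2.08, *Prodh* at −0.76, *Aldh4a1* at −0.67 and *Prodh2* at −0.57, beside 5.99% of all genes. Of the 10 periportal markers, 5 were called with the casein effect more negative, in all 12 livers of each source, with the covariate and without livers 3 to 6, and their part was not tested.

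The protein sources were also compared at like sulfur amino acid content. Cas-20% mice stayed on the diet of their acclimation and Soy-20% + SAA mice changed diet, which cannot be told apart from the source. Between the control diets, Cas-20% and Soy-20% + SAA, 0 of 6 members tested were called by edgeR, where 2.43% of all 11988 genes were called. At an unadjusted p under 0.05 there were 2 members, beside 26.2% of all genes. *Oat* was higher on casein in the mean, 8498 ± 2057 (SD, n = 6) against 5297 ± 1274, with overlapping ranges, a log2 difference of 0.68 (SE 0.17, unadjusted p = 0.0013, edgeR adjusted p = 0.051), then 0.65 with the covariate (adjusted p = 0.30) and 0.83 without livers 3 to 6 (adjusted p = 0.50). It was called without Soy-20% + SAA liver 1, 2 or 3 (0.64, 0.67 and 0.81), in fits that called 15.05%, 10.33% and 0.655% of all genes. The other 5 members differed by −0.11 to 0.29, with adjusted p from 0.12 to 0.93, and *Prodh2* turned sign from −0.02 to 0.19 with the covariate and 0.29 without livers 3 to 6. The difference of *Prodh*, 0.29, was 0.44 and 0.53 in these fits (adjusted p = 0.23 and 0.50), and that of *P4ha1*, also 0.29, was 0.16 and 0.04. *Aldh4a1* stood at 0.18 and 0.21, and *Hoga1* at −0.06 and −0.07. DESeq2 called *Oat* alone among the members (adjusted p = 0.0071), with 9.47% of all genes. Of the 10 periportal and 12 pericentral markers, 3 each were called higher on casein and 0 in these fits with the covariate or without livers 3 to 6, and their part was not tested.

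The restricted diets were compared in the same way. They held 5% casein and 11.5% soy protein, so that source and protein content cannot be told apart. In Cas-5% against Soy-10%, 4 of 7 members were called lower on casein, where 10.7% of all 12041 genes were called, 6.14% lower and 4.59% higher. *Aldh18a1*, which passed the filter through its Cas-5% livers, is not counted among them. The groups did not overlap for *Prodh2*, as for 5.86% of all genes. Nor did they for *Aldh18a1*, which is not counted for the same reason. *Prodh2* ranged from 728 to 811 in Cas-5% livers and from 927 to 1044 in Soy-10% livers, a log2 difference of −0.33 (SE 0.05, edgeR adjusted p = 0.00058). *Aldh18a1* ranged from 12.8 to 25.7 against 3.1 to 12.5, a log2 difference of 1.33 (SE 0.30), and with no filter on low counts the edgeR adjusted p was 0.010. The remaining calls were *Oat* (−0.66, SE 0.14, adjusted p = 0.0068), *Aldh4a1* (−0.31, SE 0.07, adjusted p = 0.0064) and *Hoga1* (−0.31, SE 0.09, adjusted p = 0.026), each with overlapping ranges. The call of *Hoga1* was lost without Cas-5% liver 3 or 4 or Soy-10% liver 2, 5 or 6 (adjusted p = 0.0503 to 0.0608), and *Prodh* (−0.17, adjusted p = 0.37) and *P4ha1* (0.31, adjusted p = 0.12) were not called. This comparison uses no Soy-20% + SAA liver. Of the 10 periportal markers, 5 were called lower and 1 higher, with sums of 27314 to 35916 in Cas-5% livers and 31488 to 37823 in Soy-10% livers. Of the 8 stellate cell markers, 5 were called higher, with sums of 4888 to 6400 and 4554 to 5060. Of the 12 pericentral markers, 3 were called higher and 1 lower, and the part of these markers in the members' differences was not tested.

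Over all 5 diets, each member other than *Aldh18a1* differed (edgeR F test in 30 livers, adjusted p from 3.5e-12 for *Oat* to 0.0084 for *P4ha1*), where 43.4% of all 12561 genes did. *Aldh18a1* was again in the fit through its Cas-5% livers and is not counted. *P4ha1* was not called with the GC slope as a covariate (adjusted p = 0.13) or without Soy-20% + SAA livers 3 to 6 (adjusted p = 0.16). The other members counted were called in both fits. The means of *Oat*, *Prodh* and *Aldh4a1* fell in the order Cas-20%, Soy-20% + SAA, Soy-20%, Soy-10%, Cas-5%, and those of *Prodh2* and *Hoga1* in the same order with the first 2 diets exchanged. For *Oat* the mean normalised counts in that order were 8498 ± 2057, 5297 ± 1274, 3187 ± 310, 2445 ± 711 and 1530 ± 173 (SD, n = 6 each). For *Aldh4a1* they were 3418 ± 302, 3350 ± 427, 2683 ± 164, 2346 ± 206 and 1868 ± 123.

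Neighbours in these orders were compared as contrasts of a single edgeR fit of the 30 livers, which was chosen after seeing the data. In that fit 18.6% of all genes were called between Cas-20% and Soy-20% + SAA, 3.41% between Cas-20% and Soy-20%, 14.3% between Soy-20% + SAA and Soy-20%, 0.494% between Soy-20% and Soy-10%, and 7.17% between Soy-10% and Cas-5%. *Oat* differed between each pair of neighbours (edgeR adjusted p = 0.0046, 0.0044 and 0.0089 down the order) other than Soy-20% and Soy-10% (adjusted p = 0.40). For *Aldh4a1* the neighbours Cas-20% and Soy-20% + SAA (adjusted p = 0.83) and Soy-20% and Soy-10% (adjusted p = 0.35) did not pass, and the other 2 pairs did. In fits of 2 diets alone, *Oat* was not called between Soy-20% + SAA and the neighbours Cas-20% and Soy-20%, as given above. Nor was *Aldh4a1* called between Soy-20% + SAA and Soy-20% (edgeR adjusted p = 0.070, then 0.63 with the covariate and 0.83 without livers 3 to 6). The neighbours of *Oat* that were called both ways are Soy-10% and Cas-5%. For *Prodh* only Soy-20% and Soy-10% passed among neighbours (adjusted p = 0.0092).

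*Prodh2* and *Hoga1* separated at the foot of the order. Between Soy-10% and Cas-5% *Prodh2* (adjusted p = 0.0060) and *Hoga1* (adjusted p = 0.012) passed, and their other neighbours did not (adjusted p from 0.11 to 0.87 for *Prodh2* and from 0.35 to 0.99 for *Hoga1*). The means of *Aldh18a1* ran the other way, highest in Cas-5% and then in Soy-10% livers. Below them Soy-20% + SAA, Cas-20% and Soy-20% stood at 4.2 ± 3.5, 4.1 ± 1.7 and 3.5 ± 2.2 (SD, n = 6 each). *P4ha1* had its highest mean in Cas-5% livers, 67.3 ± 8.8, and its lowest in Soy-20% + SAA livers, 44.3 ± 9.3, with no neighbours past the threshold.

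Within a diet the spread differed between members and diets. The coefficient of variation of *Oat* was 24.2% in Cas-20% livers, 24.1% in Soy-20% + SAA livers and 29.1% in Soy-10% livers, but 11.3% in Cas-5% and 9.7% in Soy-20% livers. That of *Prodh2* was 3.2% to 4.3% in Cas-5%, Soy-20% and Soy-10% livers, 8.9% in Cas-20% livers and 16.7% in Soy-20% + SAA livers. Across the 30 livers the genes of proline, ornithine and hydroxyproline oxidation were correlated on log2(normalised count + 1), with Pearson r of 0.93 for *Prodh2* and *Aldh4a1*, 0.92 for *Prodh* and *Aldh4a1*, and 0.90 for *Oat* and *Aldh4a1*. With each diet's mean taken out these became 0.63, 0.63 and 0.30, and r for *Oat* and *Prodh* went from 0.87 to 0.06. *Hoga1* had an r of 0.61 with *Oat*, 0.67 with *Prodh*, 0.72 with *Prodh2* and 0.73 with *Aldh4a1*, and −0.0023, 0.31, 0.05 and 0.15 with the diet means taken out. These are descriptions, since the livers share diets and, in 4 cases, the GC slope.

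Among 12032 genes with a mean of at least 10 counts per liver, those most like each member over the 30 livers were found by Pearson correlation of log2 CPM. *Hpd*, of tyrosine breakdown, led for *Oat* (r = 0.93), before the glutamine carrier gene *Slc38a3* and the alanine aminotransferase gene *Gpt*. *Gnmt*, the glycine N-methyltransferase, led for *Aldh4a1* (r = 0.96), *Papss2*, of sulfate activation, for *Prodh* (r = 0.94), *Pxmp2*, a peroxisomal membrane channel, for *Prodh2* (r = 0.96) and *Adh5* for *Hoga1* (r = 0.89). The values were lower for *Aldh18a1*, led by the cationic amino acid carrier *Slc7a7* (r = 0.82), and for *P4ha1*, led by the amino acid carrier *Slc38a2* (r = 0.76).

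The rest of the pathway was read from 9 lists with 58 further symbols, of which 52 were in the tables. After casein restriction 17 of the 49 tested were called, 3 higher and 14 lower, beside 24.9% of all genes called and 13.3% called lower, and the median log2 difference was −0.04. After soy restriction 12 of 48 were called, 1 higher and 11 lower, beside 17.0% of all genes called and 8.47% called lower. With the GC slope as a covariate 3 of 48 were called (*Agxt*, *Agmat* and *Slc38a4*), beside 3.10% of all genes. Without Soy-20% + SAA livers 3 to 6 it was 1 of 49 (*Slc38a4*), beside 2.54% of all genes. In the main fits 7 genes were called after both restrictions, 10 after casein alone and 5 after soy alone, a count that says nothing of a difference between the sources. That difference was called for 8 of 49, all with the casein effect more negative, beside 8.69% of all genes called and 5.49% called negative. It was called for 7 of 49 with the covariate, beside 4.32% of all genes, and for 6 of 51 without livers 3 to 6, beside 2.27%. The soy values below are from all 12 livers, followed where a call or sign changed by those with the covariate and without livers 3 to 6.

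Of the glyoxylate and glutamate genes around the hydroxyproline route, 3 of 5 in each list were called lower after casein restriction, beside 13.3% of all genes. *Got2* is in both counts. *Agxt*, which turns glyoxylate to glycine, had mean normalised counts of 1276 in Cas-20% and 315 in Cas-5% livers, with log2 differences of −2.002 for casein (SE 0.09, edgeR adjusted p = 2.6e-10) and −0.84 for soy (SE 0.16, adjusted p = 0.0038), the latter −0.74 with the covariate (adjusted p = 0.044) and −0.72 without livers 3 to 6 (adjusted p = 0.10). The glycolate oxidase gene *Hao1* differed by −0.42 for casein (adjusted p = 0.00084) and was not called for soy (−0.16). *Got1* and *Gls2*, a cytosolic aspartate aminotransferase and the liver glutaminase, differed by −2.02 and −1.86 for casein and by −0.78 and −0.43 for soy. For soy the covariate gave −0.74 and −0.50 (edgeR adjusted p = 0.064 for both), and leaving out livers 3 to 6 gave −0.64 and −0.40 (adjusted p = 0.064 and 0.13). *Got2*, the mitochondrial aspartate aminotransferase that stands in both lists, differed by −0.48 for each source, and *Glul*, glutamine synthetase, was called for soy (−0.26) and not for casein (−0.14). Neither soy call held, with *Got2* at −0.19 and −0.18 (adjusted p = 0.14 and 0.28) and *Glul* at −0.24 and −0.25 (adjusted p = 0.16 and 0.21). The casein effect was the more negative for *Agxt* (−1.17, adjusted p = 0.00054), *Gls2* (−1.43) and *Got1* (−1.25), and these 3 were called in both other fits as well.

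The ornithine and arginine genes showed a like pattern, with 4 of 7 tested called lower for casein, beside 13.3% of all genes. *Arg1*, the arginase that releases ornithine in the urea cycle, fell by 1.03 on the log2 scale for casein (SE 0.10, edgeR adjusted p = 1.2e-06) and differed by 0.05 for soy (adjusted p = 0.84), but by −0.31 with the covariate (adjusted p = 0.055) and −0.28 without livers 3 to 6 (adjusted p = 0.15). *Otc*, which uses ornithine in the same cycle, fell by 0.73 for casein and differed by −0.10 for soy, and the difference between the sources was called for both genes (−1.08 and −0.63, adjusted p = 0.00063 and 0.00034) and in both other fits (−0.83 and −0.62 with the covariate, −0.75 and −0.72 without livers 3 to 6). The mitochondrial ornithine carrier gene *Slc25a15* differed by −0.76 and −0.38, and the agmatinase gene *Agmat* by −0.58 and −0.31, with both called for each source. For soy *Slc25a15* was then −0.29 and −0.19 (adjusted p = 0.15 and 0.30), and *Agmat* −0.34 and −0.31 (adjusted p = 0.039 and 0.078). *Gatm*, which makes guanidinoacetate from arginine with release of ornithine, was called higher for soy (1.17, adjusted p = 0.020) and not for casein (0.05). Its soy difference fell to 0.41 with the covariate (adjusted p = 0.28) and 0.31 without livers 3 to 6 (adjusted p = 0.47).

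Of the other synthesis genes, *Pycrl*, a pyrroline-5-carboxylate reductase, was called lower for casein (−0.31, edgeR adjusted p = 0.0083). *Pycr1* was not tested for lack of counts, at a mean normalised count of 0.84 ± 1.0 in Cas-20% livers and 6.7 ± 3.5 in Cas-5% livers (SD, n = 6). Of 4 proline carriers tested, *Slc38a2* rose for casein (0.48, adjusted p = 0.00055) and *Slc38a4* fell for both sources (−1.11 and −0.50). The call of *Slc38a4* for soy held with the covariate and without Soy-20% + SAA livers 3 to 6 (adjusted p = 0.0029 and 0.0051). The difference between the sources was called for *Slc38a4* in all 3 fits (−0.61, −0.65 and −0.60). *Slc36a1* was called lower for casein (−0.22). Its difference between the sources, −0.70 (adjusted p = 0.032), was −0.40 with the covariate (adjusted p = 0.17) and −0.23 without livers 3 to 6 (adjusted p = 0.48), where its soy difference of 0.47 became 0.07 and 0.00023.

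The genes that make hydroxyproline in collagen, and the collagens themselves, were read next. Of 9 prolyl and lysyl hydroxylation genes tested for casein, 1 was called, beside 24.9% of all genes called and 11.6% called higher. It was *P4ha2*, another catalytic subunit, which rose by 0.55 (SE 0.17, edgeR adjusted p = 0.027). Of 12 collagen genes, only *Col6a3* was called for casein (0.67, adjusted p = 0.015), beside the same shares. For soy *Col4a2*, *Col5a1* and *Col18a1* were called lower (−0.50, −0.42 and −0.31), beside 8.47% of all genes. With the covariate, or without livers 3 to 6, 0 of 12 were called for soy. In Cas-5% against Soy-10%, 5 of 12 were called higher (*Col1a1*, *Col3a1*, *Col4a1*, *Col5a1* and *Col6a1*, by 0.28 to 0.92), beside 4.59% of all genes, and these 5 were named after their values were seen. Collagen genes are largely expressed in stellate cells, of whose 8 markers 3 were called higher for casein and 5 for the restricted diets as given above and 1 lower for soy, and the part of that cell type was not tested. Of 6 peptidases that act beside proline, *Dpp4* (−0.37) and *Xpnpep1* (−0.28) were called lower for casein, and they differed by 0.31 and −0.31 for soy (adjusted p = 0.14 and 0.070), then −0.07 and −0.02 with the covariate and −0.06 and −0.01 without livers 3 to 6. The difference between the sources was called for *Dpp4* (−0.69, adjusted p = 0.015), also with the covariate (−0.35, adjusted p = 0.041) and not without livers 3 to 6 (−0.32, adjusted p = 0.21).

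**Figure D4:**
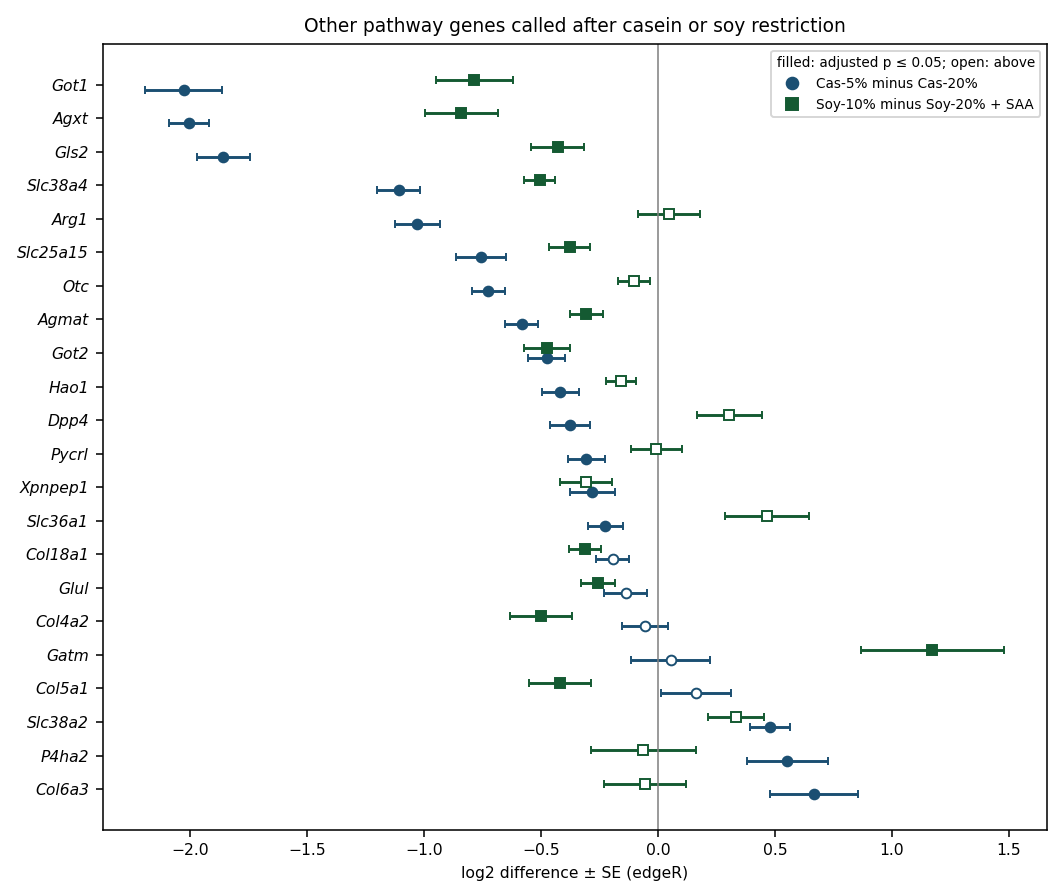
Log2 differences (horizontal axis, edgeR estimate with its SE as the bar) of the 22 further pathway genes called after casein or soy restriction, ordered by the casein difference. Filled symbols passed an adjusted p of 0.05. *Got1*, *Agxt* and *Gls2* lie near −2 for casein and between −0.43 and −0.84 for soy. The soy points are from all 12 livers.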

How the data were processed

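Liver RNA was sequenced as 3′ mRNA libraries (Lexogen QuantSeq 3′ FWD) on a NextSeq 500. The authors ran the Bluebee pipeline for QuantSeq (2.3.6) and deposited whole-number read counts per gene, and a second table in which the deposited counts were divided by DESeq2 size factors (a normalised signal that is not scaled by length, so that levels were not compared between genes). The submitters' processing notes name GRCm38 (mm10), DESeq2 1.30 and R 4.0.3, and the aligner and annotation release are not given in the sources used here. No gene had fewer than 90 counts over the 30 libraries. The size factors recomputed from the counts equalled those deposited to within 1.8e-15.

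Counts were tested with the quasi-likelihood F test of edgeR 4.0.16 in R 4.3.3, with TMM scaling, filterByExpr and Benjamini-Hochberg adjustment over all genes tested. Genes were called at an adjusted p of 0.05 or less. Each pair of diets was fitted alone, the difference between the sources in 24 livers and the 5 diets in 30. SE is that of the log2 difference. Where levels are given, they are normalised counts, as lowest, median and highest of 6 livers. GC slopes used the last 200 nucleotides of transcripts (GENCODE M21, in which 14139 of 14173 gene IDs were found). Depth limits *Aldh18a1* most. Alternatives were DESeq2 1.42.0, its size factors in edgeR, no filter, 30 livers in 1 fit, a block on replicate number, the GC slope as a covariate, leaving out Soy-20% + SAA livers 3 to 6, leaving out each liver, and Soy-20% as the soy control. The scripts were tested on simulated data.

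The members and lists were chosen with earlier results of these data known. The genes named were all 7 members, the further pathway genes called in casein or soy restriction, and for each member the genes most like it. *Pycr1* was named after its values were seen. The values of 1 listed gene are not reported here. No 2 libraries of the same diet agreed within sampling noise, with a chi-square per gene of at least 6.1. Libraries of different diets were not compared in this way. SDs describe the spread between mice, and SEs the precision of a log2 difference.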

Additional observations from a re-analysis of the deposited data

Results flagged for a closer look

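Of 35 member-by-diet groups of 6 livers, 4 held a liver whose gap to the nearest other, divided by the range of the group, passed Dixon's 95% critical value of 0.625, and chance alone passes it in about 1 in 20 groups. *Prodh* in Cas-5% liver 6 had a normalised count of 530 where the other 5 had 349 to 397 (ratio 0.738). *Aldh4a1* in Soy-20% liver 1 had 3004 where the others had 2548 to 2680 (ratio 0.710). *Aldh18a1* in Soy-20% + SAA liver 2 had 11.04 where the others had 1.9 to 4.6 (ratio 0.699). *P4ha1* in Soy-20% liver 3 had 42.2 where the others had 56.8 to 65.4 (ratio 0.629). The effect of restriction on *Oat* differed between casein and soy, by −1.35 on the log2 scale (edgeR adjusted p = 0.0020).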

How the results depend on the processing

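Of 344 values other than those that leave out a liver, 317 kept their direction and side of the threshold, 18 passed it newly, 6 no longer passed and 3 turned sign, all for *Prodh2*: 0.0662 for sulfur amino acid removal without Soy-20% + SAA livers 3 to 6, and 0.19 (GC covariate) and 0.29 (without those livers) for the control diets. For soy restriction the covariate gave 372 genes and 2 members, leaving out those livers 317 and 2, and 30 livers in 1 fit 3077 genes, against 2035 and 4. Against unsupplemented soy DESeq2 gave 217 and the 30-liver fit 62, against 103. For sulfur amino acid removal (1 gene, 0 members) DESeq2 gave 873 genes and 2 members, the 30-liver fit 1793 and 3, DESeq2 size factors and no filter 2 genes each, and the covariate and leaving out those livers 0 each, with 1030 and 844 at an unadjusted p under 0.05. For the control diets (291 genes, 0 members) DESeq2 gave 1108 and 1, the 30-liver fit 2331 and 1, the covariate 5 genes and leaving out those livers 3. For casein minus soy (1089 genes, 1 member) DESeq2 and the 30-liver fit gave 2 members, the covariate 542 genes and 4 members, leaving out those livers 296 and 3, and Soy-20% as the control 4 members. Over 5 diets the covariate gave 3551 and leaving out those livers 3433, against 5450. The cause was not tested, and leaving out 4 livers also leaves fewer samples.

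Leaving out 1 liver at a time gave 6 to 7 members and 2601 to 2888 genes for casein, 4 to 6 and 1219 to 3119 for soy, 0 to 1 and 50 to 146 against unsupplemented soy, 0 to 4 and 0 to 1587 for sulfur amino acid removal, 0 to 1 and 9 to 1817 for the control diets, 4 to 5 and 981 to 1317 for the restricted diets, and 1 to 2 and 719 to 1941 for casein minus soy. Signs turned within −0.103 to 0.0122 for *Prodh2* and −0.0221 to 0.0873 for *Aldh4a1* in the control diets, and within −0.0946 to 0.0931 for *P4ha1* in casein minus soy. With the replicate number as a block the control diets gave 141 genes, and no call of a member changed. In the pairs of diets examined, correlations of same-numbered livers ran from −0.19 to 0.20. Differently numbered livers were not compared, so these values do not settle whether the numbers pair the mice. Counts of members here include *Aldh18a1* where it passed the filter. Counts of *Aldh18a1* limit its fold changes outside Cas-5%.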
